A study of Mus musculus with 6 samples.

Results

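I1 and M1 are lines of mouse hepatocellular carcinoma cells, a liver cancer, that were selected from the same parent line, BL185, for their ability to migrate. Each is named a subclone line in its sample titles. The comparison asked what separates these 2 lines, and it set the 2 arrays titled I1 against the 2 titled M1, which is 4 of the 6 arrays of the series, over 18193 genes. The other 2 arrays hold BL185, which here gives the parent's level of each gene and helps to estimate the spread between arrays. All 3 lines were grown in DMEM with fetal bovine serum, no agent or treatment other than the selection is named, and total RNA was taken with Trizol. The labels give no strain, genotype or passage number and do not say how the selection was done or in what way it differed between I1 and M1. No subclone taken without selection was measured, so what the selection changed and what merely differs between any 2 subclones cannot be told apart. Nothing states that arrays of the same line hold RNA of different cultures, so a p-value here reflects only how far such arrays lay apart, and that spread may be technical.

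Some background helps in reading the genes. Wnt ligands are secreted proteins that stabilise beta-catenin, which then acts with TCF/LEF factors on feedback genes such as Axin2. Absorptive epithelia carry a brush border of microvilli, in which villin bundles actin and cadherin-type proteins link the tips, and keratins form the intermediate filaments beneath it. Genes of cholesterol synthesis are switched on together by SREBP2, genes of glycolysis by hypoxia-inducible factors, and genes of DNA replication by E2F factors as cells enter S phase.

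Each value below is the log2 fluorescence of a gene's probe set, so a difference of 1 is a factor of 2. The arrays differed in range, and the M1 arrays differed most. In the deposited values, the I1 mean lay up to 0.77 above M1 replicate 1 in the median of a bin of genes at high signal (10 bins by mean signal) and up to 0.28 below it at low signal. Against M1 replicate 2 the shift ran the other way, to 0.24 below at high signal. Cyclic loess, which removes level-dependent shifts between arrays, brought these medians to between -0.14 and 0.08 in every bin, and all values below are after it unless said otherwise. The M1 arrays still stood apart from each other. They correlated at r = 0.936, whereas M1 replicate 1 correlated at 0.964 and 0.958 with the I1 arrays, M1 replicate 2 at 0.978 and 0.982 with them, and the I1 arrays at 0.994 with each other, all across genes, which are not independent replicates. The M1 arrays differed by at least 1 in 2604 genes (14.3%) and the I1 arrays in 22. A control probe set for 18S ribosomal RNA (3′ end), in deposited values, read 12.50 on M1 replicate 1, 10.68 on M1 replicate 2, and 11.27 and 11.51 on the I1 arrays. The Actb 3′ to 5′ difference, a sign of RNA or labelling quality, was 1.43 and 1.24 on the M1 arrays and 1.47 and 1.43 on the I1 arrays, so it did not separate the lines. The 18S reading overlapped between the lines too. For these reasons the difference against each M1 array is given beside the mean difference. With 2 arrays a line, precision is limited throughout.

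**Figure D1:**
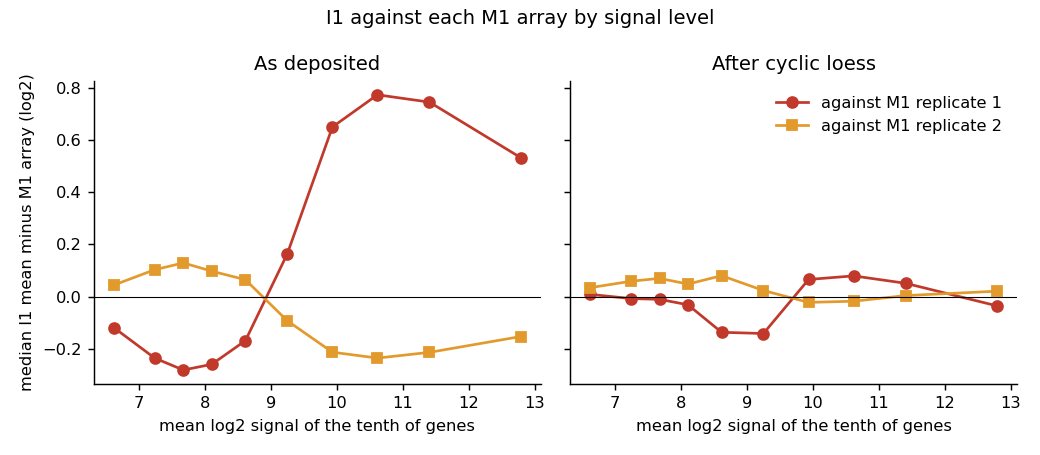
Median difference between the I1 mean and each M1 array (vertical axis, log2) over 10 bins of genes ordered by mean log2 signal (horizontal axis), for the deposited values and after cyclic loess. Against M1 replicate 1 the deposited median reaches 0.77 at high signal, and after cyclic loess both curves stay between -0.14 and 0.08.

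Defining markers of liver and of other cell types were read in each line. Krt8 and Krt18, keratins of simple epithelia, read between 14.75 and 15.14 on all 4 arrays, and Krt19, a bile duct keratin, between 14.60 and 15.05. Krt7, another bile duct keratin, read only between 6.93 and 7.25, near the dim end of the arrays. Of the other bile duct and progenitor markers measured, Sox9 read between 9.47 and 10.18. Epcam had a mean of 11.47 in M1, with arrays at 12.005 and 10.94, and of 11.255 in I1, with arrays at 11.31 and 11.20. Its other probe set went the other way, with means of 7.82 in M1 and 8.81 in I1, a difference of 0.99 without overlap. Hnf4a, a transcription factor of liver and gut epithelium, read 12.49 and 12.55 on the M1 arrays and 13.06 and 13.22 on the I1 arrays, a difference of 0.62 with an adjusted p of 0.26. Alb, encoding serum albumin, read between 7.76 and 8.22 and the liver tumour marker Gpc3 between 8.02 and 8.35, near the median of all probe sets. Afp, Ttr and Apoa1, further hepatocyte products, read 9.68, 10.32 and 9.10 on M1 replicate 1 and 7.25, 8.91 and 7.74 on M1 replicate 2. The I1 arrays lay between these values for all 3 genes. Of the stellate cell and fibroblast markers, 5 of 5 had means under 9 in both lines, as did 4 of 4 endothelial and 3 of 4 macrophage and leukocyte markers. Their summed log2 signal ranged from 10.2 to 10.4 in M1 and 10.3 to 10.5 in I1 for stellate markers, from 9.90 to 10.0 and 9.89 to 9.91 for endothelial markers, and from 10.1 to 11.3 and 10.3 to 10.7 for macrophage markers, so the lines overlapped in each. The remaining macrophage marker, Csf1r, read 10.80 on M1 replicate 1, 8.96 on M1 replicate 2, and 9.79 and 9.29 in I1. None of the 25 markers measured passed the test between the lines, which only 0.28% of all genes passed, so this count says little about the markers.

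I1 and M1 differed past the test in a small set of genes. The limma test, at a Benjamini-Hochberg adjusted p under 0.05, called 51 of 18193 genes (0.28%). Of these, 42 (0.231% of all genes) were higher in I1 and 9 (0.0495%) were higher in M1, and the smallest called change was 2.24-fold. In each of the 51, the lowest array of the higher line also lay at least 1 above the highest array of the lower line. Genes separated in this way numbered 81 with I1 higher (0.445%) and 12 with M1 higher (0.066%). At an unadjusted p under 0.05 there were 756 genes with I1 higher and 560 with M1 higher. The limma test pools the spread over the 3 lines, though the between-replicate SD was 0.49 in M1, 0.14 in I1 and 0.10 in BL185. The SEs, p-values and intervals given here may thus be too small, above all where the M1 arrays lay apart.

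The count of calls rests on the arrays used and on the normalization. It was 0 without either I1 array or either BL185 array, 2691 without M1 replicate 1 and 7099 without M1 replicate 2. Leaving out an M1 array makes the other stand alone, assumed to vary like the other lines, and the calls then split into 1366 higher in I1 and 1325 higher in M1, or 3167 and 3932. The excess of I1-higher genes was much smaller against either M1 array alone: separated genes with I1 and with M1 higher numbered 136 and 116 without M1 replicate 1, and 449 and 443 without M1 replicate 2. Of the 6 calls after quantile normalization all had I1 higher, against 82.4% of the 51, and the deposited values gave 0 calls, with 71 and 4 separated genes. The direction of all 51 genes was kept in every alternative in which they were tested. Where an array was left out or the variance model changed, this was fixed in advance. In each of these genes the arrays of the lines lay at least 1 apart. Their M1 arrays differed by a median of 0.15, against 0.36 over all genes, so the calls fell on genes for which the M1 arrays lay close together.

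**Figure D2:**
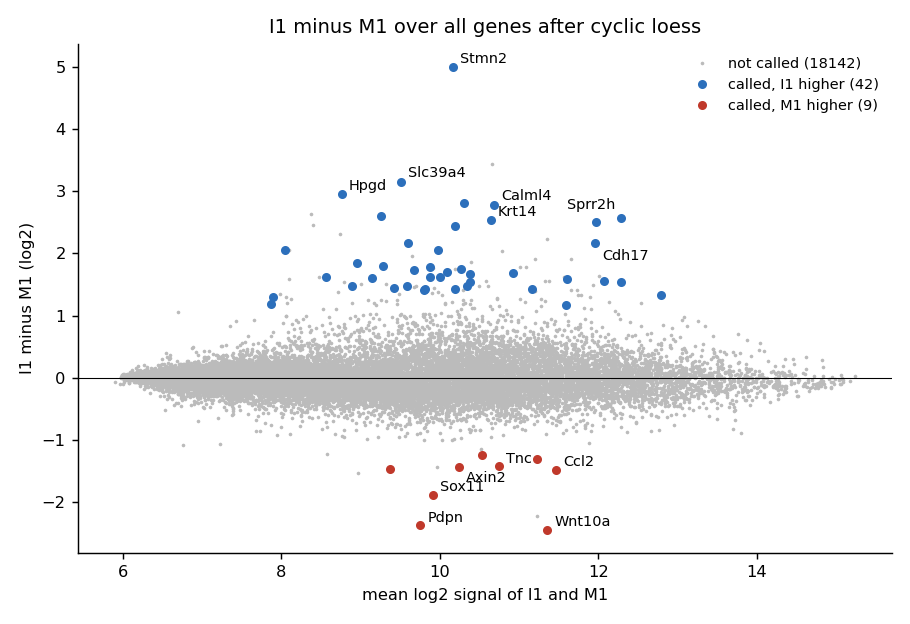
Difference between I1 and M1 (vertical axis, log2) against the mean log2 signal of the 2 lines (horizontal axis) for 18193 genes, a point each. The 42 genes called with I1 higher and the 9 called with M1 higher are coloured, and Stmn2 lies farthest out at 5.00.

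The genes highest in I1 relative to M1 included Stmn2, Slc39a4, Hpgd, Calml4 and Krt14. Stmn2, which encodes a microtubule-destabilising stathmin best known from growing axons, read 8.39 and 6.95 on the M1 arrays and 12.54 and 12.80 on the I1 arrays. It was far above M1 on both I1 arrays, although the M1 arrays themselves differed by 1.44. The difference was 5.00 ± 0.47 (SE, 2 arrays per line, spread pooled over all 3 lines), with a limma adjusted p of 0.0484. The SD of Stmn2 itself was 1.02 in M1 and 0.18 in I1. Its other probe set differed by 3.28. Of the 30 stathmin, neuronal tubulin and neuronal genes measured, Stmn2 and Vip were called, 16 were higher in I1 by any amount, and the median was 0.01, with -0.06 and 0.19 against the M1 arrays. Slc39a4, which encodes a plasma membrane zinc importer, read 8.12 and 7.76 in M1 and 11.02 and 11.14 in I1. The arrays of the lines did not overlap, the difference was 3.15 ± 0.16, and the adjusted p was 0.0188. Hpgd, encoding the dehydrogenase that inactivates prostaglandins, read 7.31 and 7.26 in M1 and 10.03 and 10.47 in I1. It differed by 2.96 ± 0.17 (adjusted p 0.0306), with M1 near the dim end of the arrays, so the size is uncertain, and its other probe set differed by 0.64.

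Calml4, a calmodulin-like light chain of brush border myosin, read 9.32 and 9.26 in M1 and 12.04 and 12.10 in I1. Its arrays were close together within each line, and the difference was 2.78 ± 0.11 (adjusted p 0.0146). Cdh17, a cadherin of liver and intestinal epithelium, read 10.60 and 11.17 in M1 and 13.01 and 13.08 in I1, differing by 2.16 ± 0.21 (adjusted p 0.0490). Vil1, which encodes villin, read 8.47 and 8.22 in M1 and 9.88 and 10.00 in I1, differing by 1.60 ± 0.14 (adjusted p 0.0478). None of these 3 genes had overlapping arrays. Krt14, a keratin of basal squamous epithelium, read 9.43 and 9.33 in M1 and 11.98 and 11.85 in I1. It differed by 2.54 ± 0.12 (adjusted p 0.0146). One further Krt14 probe set differed by 1.94 and a dim one by 0.11.

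Sprr2h, a small proline-rich protein gene of the epidermal differentiation cluster, and 2610528A11Rik, which encodes the ligand of the receptor GPR15, lay above the median signal in both lines. Sprr2h read 10.66 and 10.78 in M1 and 13.24 and 13.22 in I1, and 2610528A11Rik read 10.91 and 11.10 in M1 and 13.57 and 13.58 in I1. Neither overlapped between lines, and they differed by 2.51 ± 0.11 and 2.57 ± 0.12, both with an adjusted p of 0.0146. Serpinb1a, an inhibitor of neutrophil proteases, differed by 2.82, Cyp4f14, a cytochrome P450 that hydroxylates fatty acids, by 2.60, Selenbp1, a methanethiol oxidase, by 2.16, and Bmper, a secreted protein that binds bone morphogenetic proteins, by 2.44. All 4 passed the test with non-overlapping arrays. Further called genes with I1 higher were the actin-capping Capg (1.54), the desmosomal Pkp1 (1.17), the immediate early transcription factor Egr1 (1.56), the stress-induced Nupr1 (1.68) and the neuropeptide gene Vip (1.85).

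The remaining genes called with I1 higher had varied known roles. Gda, encoding guanine deaminase, read 8.85 and 9.04 in M1 and 11.09 and 10.92 in I1, and Papss2, which makes the sulfate donor of sulfotransferases, read 9.19 and 9.59 in M1 and 11.20 and 11.10 in I1. Sqor, a mitochondrial enzyme that oxidises hydrogen sulfide, read 10.77 and 10.86 in M1 and 12.34 and 12.47 in I1. In these 3 the arrays did not overlap, and the differences were 2.06, 1.76 and 1.59. Acss2, the cytosolic acetyl-CoA synthetase, differed by 1.62, Ppp1r3b, a glycogen-targeting subunit of protein phosphatase 1, by 1.41, Fmo1, a flavin-containing monooxygenase, by 1.74 and Cyp3a13, a cytochrome P450, by 1.47. Naip2, a sensor of bacterial secretion systems, read 8.94 and 9.05 in M1 and 10.66 and 10.89 in I1. The interferon-inducible Ifi27 and Ifi27l2b differed by 1.43 and 1.47, and the mast cell protease gene Mcpt1 by 1.71. Jam2, a junctional adhesion molecule, read 9.49 and 9.605 in M1 and 11.16 and 11.27 in I1, and Synpo, an actin-associated protein gene, differed by 1.44. Of transcription factors, Dbp, which follows the circadian clock, differed by 1.61 and Satb1, a chromatin organiser, by 1.62. Rarres1, Tmem45a, Ndrg2 and 2510009E07Rik differed by 2.06, 1.80, 1.43 and 1.18. The lower line's mean was under 8 in 8 of the 42 genes, where the size of a difference is uncertain. Of the 51 called genes, 12 had another probe set with a mean of at least 9 in either line, 15 probe sets in all. These differed in the same direction in 15 of 15, without overlap in 14, Dbp being the exception. The floor lets a probe set in through the line in which it read higher, so this count is no independent test of the calls. Dimmer sets are left out, among them a Mtm1 set that differed by 0.49, against the direction of its call.

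Several genes with large differences did not pass. Tmigd1, a transmembrane protein of epithelial cells, read 8.44 and 9.44 in M1 and 12.19 and 12.56 in I1, differing by 3.44 ± 0.36 with an adjusted p of 0.0584. Cftr, the chloride channel gene, read 7.04 and 8.12 in M1 and 9.90 and 9.90 in I1, and its difference of 2.31 ± 0.35 had an adjusted p of 0.176. Another probe set of Cftr, dim at means of 6.02 in M1 and 6.05 in I1, differed by 0.03. Fos read 9.66 and 10.83 in M1 and 11.97 and 12.34 in I1, differing by 1.91 ± 0.40 with an adjusted p of 0.301. In each of the 3 the arrays did not overlap, but the M1 arrays lay about 1 or more apart.

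The genes highest in M1 relative to I1 included a Wnt ligand, a beta-catenin feedback gene, a matrix protein and a chemokine. Wnt10a, encoding a Wnt ligand, read 12.43 and 12.72 in M1 and 10.12 and 10.14 in I1. Its arrays were well apart, and I1 was lower by 2.45 ± 0.15, an I1 minus M1 difference of -2.45 with an adjusted p of 0.0367. Axin2, encoding a scaffold that limits beta-catenin, read 10.90 and 11.02 in M1 and 9.58 and 9.46 in I1. The difference was -1.44 ± 0.12 (adjusted p 0.0467), but its other probe set, dim in both lines, differed by -0.00. Sox11, a transcription factor of embryonic and neural progenitors, read 10.69 and 11.01 in M1 and 8.95 and 8.996 in I1. It differed by -1.88 ± 0.15 (adjusted p 0.045), and its 5 other probe sets differed in the same direction, by -1.07 to -1.79.

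Pdpn encodes podoplanin, a membrane glycoprotein that binds ezrin and the platelet receptor CLEC-2. It read 11.10 and 10.77 in M1 and 8.56 and 8.57 in I1, which did not overlap, and differed by -2.38 ± 0.16 (adjusted p 0.0409). Podoplanin is also found on fibroblasts, and of 20 stellate cell and fibroblast genes measured Pdpn alone was called, with a list median of -0.01. Tnc, encoding the matrix glycoprotein tenascin-C, read 11.48 and 11.44 in M1 and 10.01 and 10.05 in I1, differing by -1.43 ± 0.11 (adjusted p 0.045). Ccl2, encoding a chemokine that attracts monocytes, read 12.23 and 12.18 in M1 and 10.63 and 10.81 in I1, differing by -1.49 ± 0.14 (adjusted p 0.0484). For Tnc and Ccl2 too the arrays of the lines lay more than 1 apart. Chrna1, a subunit of the muscle acetylcholine receptor, read 10.08 and 10.13 in M1 and 8.54 and 8.74 in I1 and differed by -1.46. Mtm1, a phosphoinositide phosphatase gene, differed by -1.32, with other probe sets at -0.92 and, where dim, 0.49. Frmd4a, a FERM domain gene of epithelial polarity, differed by -1.25, and these 3 genes passed the test as well. Ndnf, a secreted neurotrophic factor gene, read 12.05 and 12.63 in M1 and 9.78 and 10.44 in I1. Its difference of -2.22 ± 0.29 had an adjusted p of 0.131, and its other probe set, dim in both lines, differed by 0.04. Syt13 and Stra6, which encode a synaptotagmin and a retinol transporter, had separated arrays but adjusted p-values of 0.107 and 0.235.

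**Figure D3:**
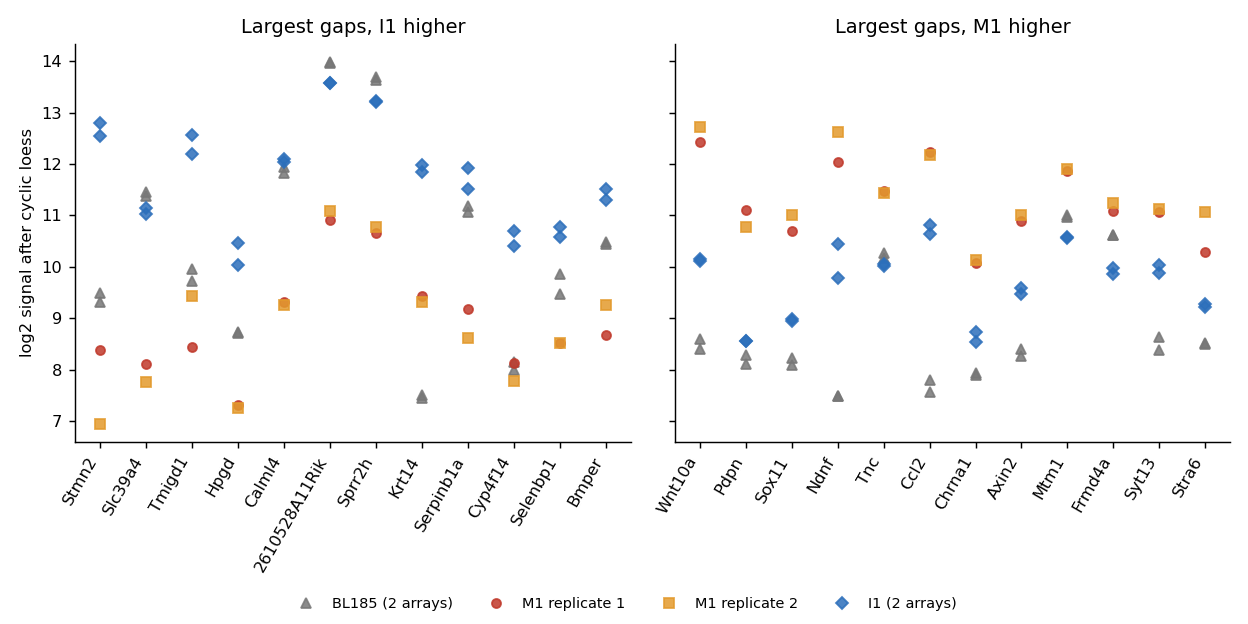
Log2 signal after cyclic loess on each array (vertical axis) for the 12 genes per direction with the largest gap between the lines (horizontal axis), with a symbol per array and the BL185 arrays in grey. In all 24 genes no I1 array overlaps an M1 array, and the M1 arrays lie farthest apart for Stmn2.

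The promoter windows of 4 of the called genes are shown because they stand for both directions. With I1 higher they are 2 of the genes that tied at the smallest adjusted p of the limma test, 0.0146. Calml4 and Krt14, which tied with them, are not shown. With M1 higher they are a receptor gene and the Wnt feedback gene. Each window runs from 250 bases before to 50 bases after the start of the gene on its own strand, from RefSeq on GRCm38.p6. Capitals mark matches, on either strand, to TATAAA (the TATA box), CTTTGA (TCF/LEF), TTTATG (CDX), GTTAAT (HNF1) or TGANTCA (AP-1). None of these motifs contains another, though neighbouring matches could overlap. 2610528A11Rik lies on the minus strand at chr14:37110052-37110351, Sprr2h on the plus strand at chr3:92385435-92385734, Chrna1 on the minus strand at chr2:73580289-73580588 and Axin2 on the plus strand at chr11:108920099-108920398.
2610528A11Rik: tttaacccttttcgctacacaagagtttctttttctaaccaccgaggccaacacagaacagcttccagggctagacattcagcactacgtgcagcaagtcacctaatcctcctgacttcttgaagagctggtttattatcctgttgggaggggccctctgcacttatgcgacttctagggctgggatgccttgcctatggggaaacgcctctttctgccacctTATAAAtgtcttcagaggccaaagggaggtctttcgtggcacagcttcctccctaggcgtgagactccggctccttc
Sprr2h: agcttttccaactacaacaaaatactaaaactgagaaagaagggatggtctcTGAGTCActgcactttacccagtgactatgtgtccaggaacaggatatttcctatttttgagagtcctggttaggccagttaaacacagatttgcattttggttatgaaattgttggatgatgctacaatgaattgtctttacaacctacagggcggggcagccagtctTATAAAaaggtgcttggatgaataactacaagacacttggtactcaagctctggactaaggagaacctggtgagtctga
Chrna1: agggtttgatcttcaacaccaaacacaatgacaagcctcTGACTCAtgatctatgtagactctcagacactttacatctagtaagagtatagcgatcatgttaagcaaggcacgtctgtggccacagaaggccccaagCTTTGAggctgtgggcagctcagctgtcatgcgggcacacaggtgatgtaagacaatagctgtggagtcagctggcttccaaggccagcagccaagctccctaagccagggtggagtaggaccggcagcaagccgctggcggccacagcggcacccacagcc
Axin2: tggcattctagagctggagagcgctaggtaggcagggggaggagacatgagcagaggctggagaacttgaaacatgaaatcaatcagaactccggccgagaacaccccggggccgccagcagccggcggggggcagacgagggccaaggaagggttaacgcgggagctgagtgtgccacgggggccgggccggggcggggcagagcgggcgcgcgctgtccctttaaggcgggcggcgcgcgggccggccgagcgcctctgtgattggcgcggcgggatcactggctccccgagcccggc
TATAAA lies 27 bases before the start of 2610528A11Rik and 29 before that of Sprr2h, which also holds an AP-1 match 198 bases before it. Chrna1 holds CTTTGA 112 bases and an AP-1 match 211 bases before its start, and the Axin2 window holds none of the 5 motifs. Of 18009 windows of 14368 genes measured, 9.76% held TATAAA, 13.5% CTTTGA, 8.18% TTTATG, 5.28% GTTAAT and 6.35% TGANTCA. Of the 38 windows of 28 called genes with I1 higher, 7, 5, 4, 2 and 2 held them in that order. Of the 13 windows of 7 called genes with M1 higher, 3, 3, 0, 3 and 2 held them. Windows of a gene with several starts overlap, and a match describes letters, not binding.

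The parent line was not always the lower or the nearer one. Of the 42 genes called with I1 higher, BL185 lay between the lines in 21, above both in 15 and below both in 6. It was nearer to I1 in 24 of them and nearer to M1 in 18. Calml4 (11.94 and 11.83 in BL185), Slc39a4 (11.38 and 11.46) and Sprr2h (13.64 and 13.69) were near the I1 level in the parent, and Vip (13.04 and 13.003) was above both lines. Krt14 (7.46 and 7.52) was below both lines in the parent. Of the 9 genes called with M1 higher, BL185 was nearer to I1 in 8, below both lines in 6 and between them in 3. Wnt10a (8.60 and 8.40), Ccl2 (7.80 and 7.57) and Axin2 (8.27 and 8.41) were each lower in the parent than in either selected line. These positions are given as levels, without a test against BL185.

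The gene lists were described by their counts and medians, without a set test. Of 1280 genes in any list, 12 were called with I1 higher and 5 with M1 higher. Over all 18193 genes these counts were 42 (0.231%) and 9 (0.0495%). The lists were chosen with earlier results of these data known, so these shares test nothing. As a yardstick, the arrays of the lines did not overlap in 14.9% of all genes with I1 higher and in 12.4% with M1 higher, or in 24.1% and 24.7% of the genes with a mean of at least 11. Of 46 lists with at least 10 members measured, 3 had a median at least 0.2 above 0 against each M1 array and 4 at least 0.2 below 0, a size chosen after the values were seen. In 24 lists the medians against the 2 M1 arrays had opposite signs. The median over all genes was -0.01. The scaling moves these medians, because the 3571 genes with a mean of at least 11 had a median of -0.01 after cyclic loess, 0.20 with the deposited values and 0.28 with median centring. For the lists whose medians lay farthest from 0, the medians under those 2 scalings are given below. Lists with medians near 0 turned in some cases: the median of the proteasome subunits was -0.05 after cyclic loess, 0.14 with the deposited values and 0.22 with median centring.

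**Figure D4:**
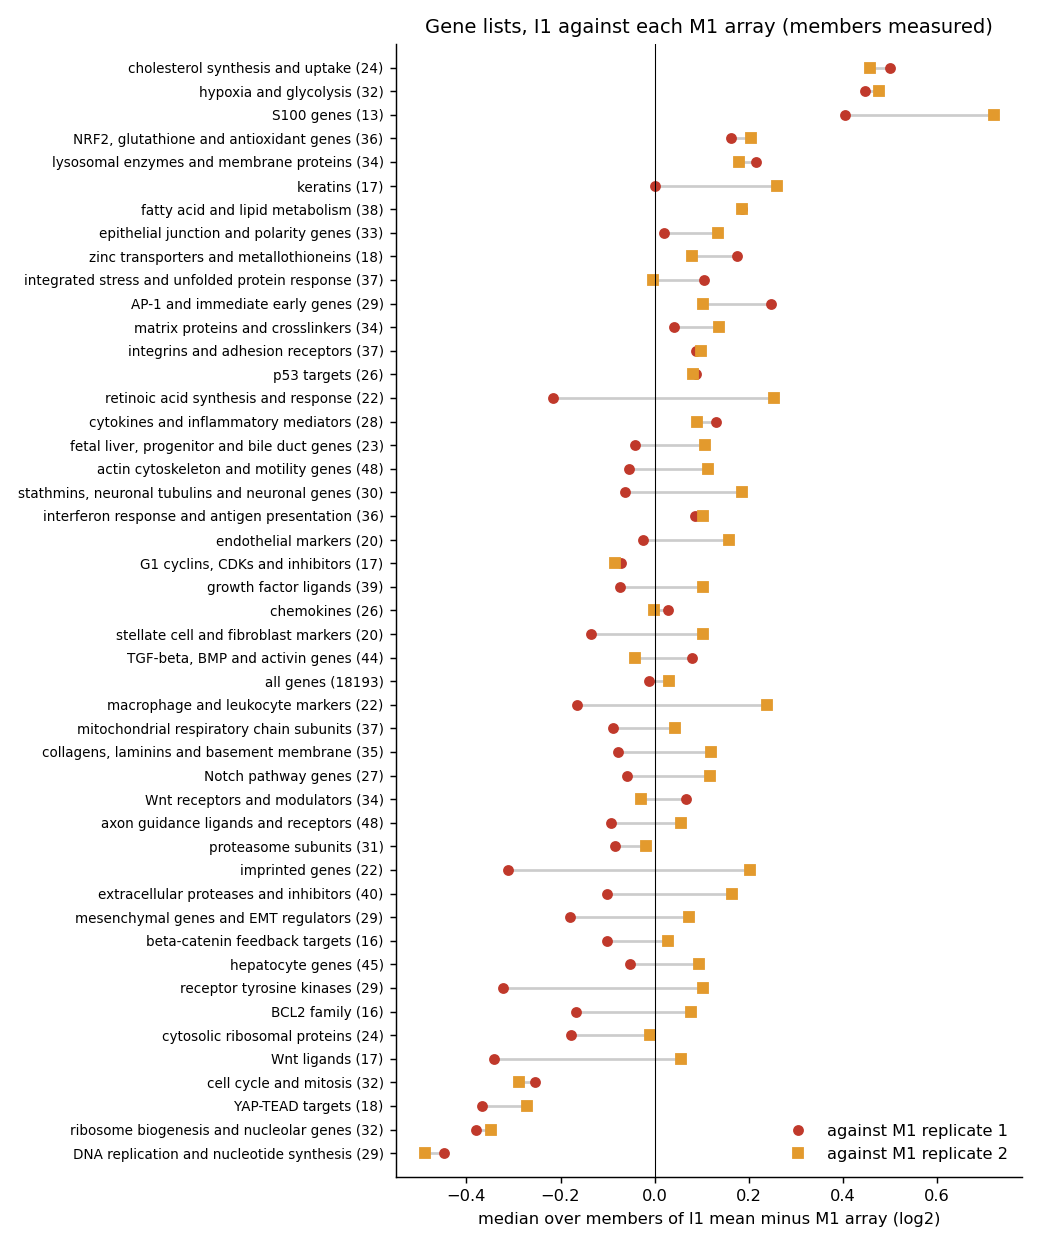
Median over the members of each gene list of the I1 mean minus each M1 array (horizontal axis, log2), with the number of members measured after each list's name (vertical axis). Cholesterol synthesis, glycolysis and S100 genes lie to the right against both M1 arrays, and cell cycle, YAP-TEAD, ribosome biogenesis and replication genes lie to the left, the cell cycle median turning to 0.06 with median centring in place of cyclic loess.

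Genes of cholesterol synthesis and uptake lay higher in I1 as a group. The median difference of the 24 members measured was 0.52, with 0.50 against M1 replicate 1 and 0.46 against M1 replicate 2, and it was 0.72 with the deposited values and 0.80 with median centring. In 20 of the 24 (83.3%) the arrays did not overlap with I1 higher, and in 0 with M1 higher, but none was called. The list's median level was 11.01 and 11.31 on the M1 arrays and 11.76 and 11.74 on the I1 arrays. Named after their values were seen, Hmgcs1, the synthase at the start of the pathway, read 13.74 and 13.79 in M1 and 14.36 and 14.28 in I1, and Cyp51, lanosterol demethylase, read 11.04 and 11.68 in M1 and 12.21 and 12.39 in I1. Both sets of arrays were apart, with differences of 0.56 and 0.94 and adjusted p-values of 0.262 and 0.394. Scarb1, the HDL receptor, and Abcg1, a cholesterol exporter, differed by -0.09 and -0.05.

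Genes of hypoxia and glycolysis had a median difference of 0.48 over 32 members, 0.45 and 0.48 against the 2 M1 arrays (0.65 with the deposited values, 0.73 with median centring and 0.29 with the probe sets of each gene averaged), and 20 of the 32 (62.5%) did not overlap with I1 higher against 0 with M1 higher. Ankrd37, a target of hypoxia-inducible factor, was called: it read 9.52 and 9.69 in M1 and 11.07 and 11.11 in I1, differing by 1.48 ± 0.13 (adjusted p 0.0467). Pfkp, a phosphofructokinase isoform, differed by 1.56 and Aldoc, an aldolase isoform, by 1.33, and neither passed, at adjusted p-values of 0.22 and 0.123. The other probe sets of Pfkp differed by 0.22 and 0.10. They were much dimmer, with I1 means of 8.24 and 7.51 against 12.11 for the set used. Of the 13 S100 genes, which encode small calcium-binding proteins, 7 (53.8%) lay higher in I1 without overlap and 0 higher in M1. Their median was 0.43, with 0.41 and 0.72 against the M1 arrays. It was 0.60 with the deposited values, 0.68 with median centring and 0.71 without genes under a mean of 8. S100a14 was called, at 9.07 and 9.12 in M1 against 10.67 and 10.38 in I1, while S100a4, often measured in migrating cells, read 13.03 and 12.85 against 13.77 and 13.76 and did not pass, with a difference of 0.83 and an adjusted p of 0.274. Among 36 NRF2, glutathione and antioxidant genes the median was 0.19, or 0.39 with the deposited values and 0.46 with median centring, and Gsta4, a glutathione transferase gene, was called with a difference of 1.54. The median of 34 lysosomal genes was 0.15, or 0.34 and 0.42 under these scalings.

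Genes of DNA replication and nucleotide synthesis lay higher in M1, by a size that depended on the scaling. The median difference of 29 members was -0.46, with -0.45 and -0.49 against the 2 M1 arrays, and 21 of them (72.4%) did not overlap with M1 higher against 0 with I1 higher. With the deposited values the median was -0.23 and with median centring -0.16. None was called. The list's median level was 11.84 and 11.88 on the M1 arrays, 11.40 and 11.45 on the I1 arrays and 9.95 in BL185, so both selected lines lay above the parent. Mcm2, a subunit of the replicative helicase named after its values were seen, read 12.72 and 12.66 in M1 and 11.96 and 11.82 in I1, and its difference of -0.79 had an adjusted p of 0.164. Rrm2 and Tyms, which encode a ribonucleotide reductase subunit and thymidylate synthase, differed by 0.00 and 0.17. Of 32 cell cycle and mitosis genes, 20 (62.5%) did not overlap with M1 higher, against 24.7% of all genes with a mean of at least 11. The median of this list was -0.26, but it was -0.01 with the deposited values. It turned to 0.06 with median centring, so no direction holds for this list under every scaling. With the probe sets of each gene averaged it was -0.15. Mki67, the proliferation marker, read 12.86 and 12.81 in M1 and 11.996 and 12.23 in I1, which is -0.72 ± 0.13 with an adjusted p of 0.238.

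Of 32 ribosome biogenesis and nucleolar genes, 22 (68.8%) did not overlap with M1 higher, and their median difference was -0.34, with -0.38 and -0.35 against the M1 arrays. It was -0.13 with the deposited values and -0.06 with median centring. Wdr74, a factor of large subunit assembly named after its values were seen, read 12.24 and 12.20 in M1 and 11.46 and 11.44 in I1, and its difference of -0.77 had an adjusted p of 0.149. The 24 cytosolic ribosomal protein genes had a median of -0.11, with -0.18 and -0.01 against the M1 arrays. For the 18 YAP-TEAD target genes the median was -0.32, or -0.13 with the deposited values and -0.06 with median centring. Of them, 10 (55.6%) did not overlap with M1 higher and 3 (16.7%) with I1 higher. Among all genes with a mean of at least 11 these shares were 24.7% and 24.1%. None of these 3 lists held a called gene, and only 0.28% of all genes were called.

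**Figure D5:**
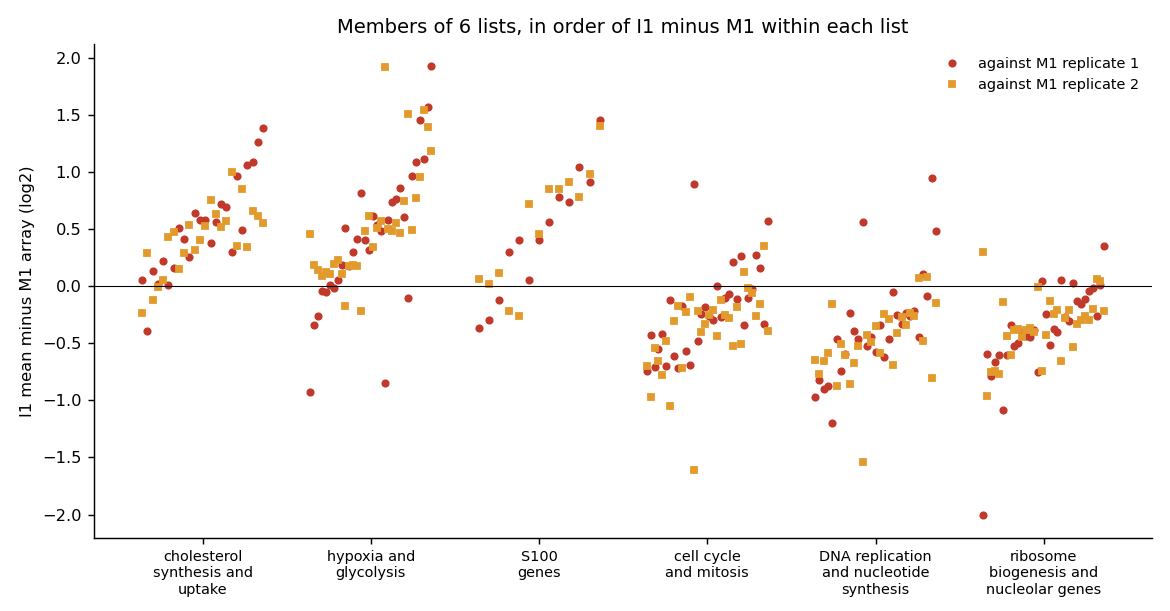
I1 mean minus each M1 array (vertical axis, log2) for the members of 6 gene lists, placed in order of their mean difference within each list (horizontal axis). Most members of the first 3 lists lie above 0 and most members of the other 3 below 0 against both M1 arrays, after cyclic loess; with median centring the cell cycle median turned to 0.06.

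Genes tied to the migratory and mesenchymal state mostly did not pass the test, as held for all genes, of which 0.28% were called. Over 29 mesenchymal genes and regulators of the epithelial-mesenchymal transition the median was -0.06, with -0.18 and 0.07 against the 2 M1 arrays. Tnc, named above, was the called member of this list, with M1 higher. Vim, encoding vimentin, read 14.86 and 14.80 in M1 and 14.86 and 14.84 in I1, with a 95% interval of the difference from -0.26 to 0.31. Cdh1, encoding E-cadherin, read 13.25 and 13.22 in M1 and 13.34 and 13.37 in I1, with an interval from -0.15 to 0.39. These intervals may be too small, because the spread was pooled over the lines, and they are not adjusted for the number of genes. They thus set no firm bound on a change in either gene. Fn1, encoding fibronectin, read 13.76 and 13.77 in M1 and 13.23 and 13.42 in I1, and Met, the receptor of hepatocyte growth factor, read 12.55 and 12.54 in M1 and 11.997 and 12.14 in I1. Neither overlapped, but their differences of -0.44 and -0.47 had adjusted p-values of 0.51 and 0.381. Of 48 actin cytoskeleton and motility genes, the median was 0.02, or 0.19 with the deposited values and 0.26 with median centring, and the called members were Capg and Vil1, named above.

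The 37 integrins and adhesion receptors had a median of 0.05, or 0.09 and 0.10 against the M1 arrays, and 13 of them (35.1%) did not overlap with I1 higher against 4 (10.8%) with M1 higher. Their median was 0.20 with the deposited values, 0.27 with median centring and -0.02 with the probe sets of each gene averaged. Of 35 collagens, laminins and basement membrane genes, 12 (34.3%) did not overlap with I1 higher and 6 (17.1%) with M1 higher, with a median of -0.02, and of 40 extracellular proteases and inhibitors 9 (22.5%) and 4 (10.0%), with a median of -0.05. Over all genes the shares without overlap were 14.9% and 12.4%. No gene of these 3 lists was called, as held for most genes, of which 0.28% were called. Among 17 Wnt ligands, Wnt10a was called, and Wnt4 read 11.78 and 11.73 in M1 and 11.14 and 11.07 in I1, which did not pass at an adjusted p of 0.215. The median of the Wnt ligands was -0.34 against M1 replicate 1 and 0.06 against M1 replicate 2. Of 16 beta-catenin feedback targets, Axin2 was called, Lgr5, the receptor of R-spondins, differed by -0.84 with an adjusted p of 0.434, and Dkk1, a secreted Wnt antagonist, by 0.53 with an adjusted p of 0.487. The 26 chemokine genes had a median of -0.00, with Ccl2 called. The 29 receptor tyrosine kinases, the 22 imprinted genes and the 22 retinoic acid genes had medians of -0.32, -0.31 and -0.22 against M1 replicate 1 and of 0.10, 0.20 and 0.25 against M1 replicate 2, so no direction can be given for them.

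Epithelial and housekeeping lists had medians between -0.08 and 0.10. Of 33 epithelial junction and polarity genes, 10 (30.3%) did not overlap with I1 higher and 4 (12.1%) with M1 higher, against 14.9% and 12.4% of all genes. Their median was 0.09, or 0.02 and 0.14 against the M1 arrays. Of 17 keratins, 5 (29.4%) did not overlap with I1 higher and 1 (5.88%) with M1 higher. The keratin median was 0.10, and Krt14 was the called member. The 37 subunits of the mitochondrial respiratory chain had a median of -0.02 and the 31 proteasome subunits one of -0.05. The 29 AP-1 and immediate early genes had a median of 0.06, with 0.25 and 0.10 against the M1 arrays, and Egr1 was called. The 36 interferon response and antigen presentation genes had a median of 0.01, with 7 members apart with I1 higher and 0 with M1 higher, which is 19.4% against 14.9% of all genes. For 45 hepatocyte genes the median was -0.08, with -0.05 and 0.09 against the M1 arrays, and none was called.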

How the data were processed

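The 6 arrays, 2 per line, were hybridised with RNA amplified by a 3′ IVT kit, per the labels' protocols. The authors deposited a log2 value per probe set, made with RMA and affy per the submitters' processing notes; the sources used here give no versions, settings or detection calls. By the platform annotation, 34945 of the 45101 probe sets belong to 1 gene, 932 to several and 9160 to none, and 64 are controls; 34741 matched RefSeq genes of GRCm38.p6 by Entrez identifier and 0 symbols changed. Where a gene had several, the probe set of highest mean was used (18193 genes, 9010 with several probe sets). The number of unused sample columns was 0.

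Cyclic loess was run on all probe sets except controls, with limma 3.58.1 in R 4.3.3. lmFit and eBayes estimated line means from the 6 arrays, with 3 residual degrees of freedom, and I1 minus M1 was tested two-sided with Benjamini-Hochberg adjustment over all genes. Errors are SEs of this fit. An exact permutation test of 2 against 2 arrays cannot reach 0.05, so none was made. The fit was also run on simulated arrays with known differences, as a check of the code. Recovery of these differences was required only where every line had the small spread of BL185. The check thus does not speak for the calls made here, where the M1 arrays lay apart.

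Named genes were, per direction, the 12 with the largest gap between the lines among genes whose higher line had a mean of at least 9, up to 12 called genes by size, up to 4 separated members per list, and 24 fixed genes. Other genes named as examples or list members were chosen after their values were seen. The members, the 47 lists and the tests were chosen with earlier results of these data known. Gene lists received no set test. Alternatives were the normalization, the arrays in it and in the fit, the probe set rule, a filter on dim genes, an added constant, the variance model, array weights, a replicate block, stricter thresholds and each array left out.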

Additional observations from a re-analysis of the deposited data

How the results depend on the processing

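Every alternative kept the direction of those of the 51 called genes it tested, though many ended the calls themselves. With an array left out or another variance model the direction could not turn, since the lines' arrays lay at least 1 apart. limma called 0 genes with the deposited values (409 at an unadjusted p under 0.05), 0 with median centring (360), 0 with only the 4 I1 and M1 arrays in the fit (705), 6 with quantile normalization, 22 with cyclic loess over the 4 arrays, 21 with robust eBayes, 6 with array weights and 0 at an adjusted p of 0.01 (1316). Leaving out an array gave between 0 and 7099 calls, between 96 and 449 separated genes with I1 higher where a line's array was left out, and between 12 and 443 with M1 higher. At the count of 0, without I1 replicate 1 or 2 or either BL185 array, 515, 589 and 705 genes were under an unadjusted p of 0.05. Separated genes with M1 higher numbered 4 with the deposited values and with median centring and 6 with probe sets averaged per gene. A gap of 2 left 12 with I1 higher and 2 with M1 higher.

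With the replicate number as a block, 0 genes were called (1265 at an unadjusted p under 0.05). Replicate differences correlated at 0.26 between I1 and M1, 0.23 between I1 and BL185 and 0.00 between M1 and BL185. The sample titles do not say whether arrays of the same number were handled together, and these values do not settle it.

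Reversed were small differences that did not pass the test. Epcam became 0.028 with the deposited values, 0.10 with median centring and 0.39 with the mean of probe sets, and Gpc3 -0.072 with the deposited values and -0.035 with quantile normalization. Clca4a became 0.021, 0.12, 0.10 and 0.10, and Timp1 0.24, 0.042, 0.31 and 0.034, with the deposited values, quantile normalization, median centring and cyclic loess over 4 arrays. With single arrays left out, Epcam ranged from -0.75 to 0.31, Gpc3 from -0.15 to 0.19, Clca4a from -0.50 to 0.10, Timp1 from -0.19 to 0.19, Afp from -1.71 to 0.72, Vim from -0.0079 to 0.054 and Alb from -0.088 to 0.37. The cause of these changes was not tested. Over named genes, 709 alternative values kept direction and call, 364 lost the call and 42 gained it; of the list medians, 801 stayed within the replicate spread and 92 moved (22 of these with median centring and 19 with the deposited values).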

Other observations

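After the leading genes had been seen, 52 genes known from absorptive intestinal epithelium were listed, of which 48 were measured. Because the list was written from genes that led the comparison, its counts describe those genes and test nothing. Of the 48, 9 were called with I1 higher, as were 0.231% of all genes. In 27 (56.25%) the arrays did not overlap with I1 higher and in 0 with M1 higher, against 14.9% and 12.4% of all genes. The median difference was 0.35, with 0.33 against M1 replicate 1 and 0.51 against M1 replicate 2. Lgals4, encoding a galectin of the gut epithelium, read 12.24 and 12.001 in M1 and 13.46 and 13.46 in I1 and was called with a difference of 1.34. Cdx2, the intestinal homeobox factor, read 10.20 and 10.72 in M1 and 11.56 and 11.81 in I1, differing by 1.22 without passing, with an adjusted p of 0.225. Cdhr5, a protocadherin of microvillus tips, read 10.86 and 10.34 in M1 and 12.24 and 12.08 in I1, differing by 1.56 with an adjusted p of 0.123. Among genes of mature enterocytes and goblet cells, Lct, encoding lactase, differed by 0.00, Alpi, encoding intestinal alkaline phosphatase, by -0.06, and Muc2, encoding the goblet cell mucin, by -0.09.

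Ptger3, a prostaglandin E receptor gene, read 7.23 and 7.26 in M1 and 8.60 and 8.51 in I1 and was called with a difference of 1.31, at dim levels in M1. Ptgs2, encoding the inducible cyclooxygenase, read 9.42 and 10.11 in M1 and 11.05 and 10.97 in I1, differing by 1.25 without passing, with an adjusted p of 0.257. Both genes were picked after their values were seen.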
